A study of Mus musculus with 5 samples.

Results

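A set of 9 genes that build or shape lens fibre cells, other than the crystallins, was examined in retinal RNA of mice with form-deprivation myopia (FDM). Of the 9 symbols, 8 were found as gene names among the 33636 rows of the count table, namely Mip, Bfsp1, Bfsp2, Gja3, Lgsn, Lctl, Dnase2b and Hsf4. The symbol Lim2 was not among the row names. The row with identifier ENSMUSG00000093639 was named Gm52993 in the table, while the GENCODE M21 annotation of GRCm38 gives this identifier the name Lim2, so that row is described beside the 8 genes and enters none of their counts. The genes were selected on their counts in these 5 libraries, since lens transcripts were known to stand high in one FDM library, and the difference between FDM and control eyes is therefore given for them as a description that supports no test.

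Fibre cells form the bulk of the lens. They elongate, fill with crystallins, lose their nuclei and organelles, and depend on a cytoskeleton of beaded filaments, on water channels and on gap junctions to stay transparent. The retina does not contain fibre cells, although some of these genes are also transcribed elsewhere at a low level.

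The libraries came from wild-type male mice of the C57BL/6J strain, a common inbred laboratory mouse, whose retinas were collected at P42 (postnatal day 42). The FDM group held 2 retinas from right eyes that had worn a diffuser goggle for 2 weeks from P28, which blurs the retinal image, and the control group held 3 retinas from uncovered left eyes. The control eye belonged to a goggled mouse, so no untouched animal was sampled, and 1 of the 3 FDM libraries was left out by the authors for read duplication. In the sample titles the second FDM library carries the number 2, whereas the column of the count table and the sequencing metrics of the study give it the number 3, and it is called FDM 3 here. FDM 1 and Control 1 were thus taken as the eyes of mouse 1 and FDM 3 and Control 3 as the eyes of mouse 3, while Control 2 had no partner. By the sample titles Control 2 would be the partner of FDM 3, and ratios are given for that pairing too.

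Estimated counts per library summed to between 40599047 and 56534931, and 3 counts corresponded to between 0.0526 and 0.0751 CPM (counts scaled to a common library size, with TMM factors), which is the smallest level treated as detected and covers counting error only. The 10 retina markers were detected in every library, with a summed level of 49300 and 53600 CPM in FDM eyes and of 44100 to 56600 CPM in control eyes. Lens crystallins (15 genes) summed to 27.8 CPM in FDM 1, 2650 in FDM 3, and 25.5, 65.7 and 46.1 in Control 1, 2 and 3. The 10 markers of the retinal pigment epithelium (RPE) summed to 70.7 and 66.1 CPM in the FDM libraries and to 70.7, 233 and 282 CPM in the controls. The 8 muscle markers reached 71.2 CPM in Control 3 and lay between 9.37 and 10.9 CPM elsewhere. The 5 blood markers lay between 33 and 47.6 CPM in all libraries. The 5 cornea markers lay between 0.807 and 1.81 CPM, with Krt14 at 0 counts in some libraries. FDM 3 thus stood apart by its crystallins, and Controls 2 and 3 by their RPE transcripts. Controls 2 and 3 also held more of most crystallins other than Cryab than FDM 1 and Control 1 did, at levels far below FDM 3.

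Of the 8 genes found, 6 were far higher in FDM 3 than in every other library, and their levels in FDM 1 were like those in the controls. Hsf4 varied little over the 5 libraries and Dnase2b was hardly detected. Summed over the 8 genes, 394 counts were found in FDM 1 and 3763 in FDM 3, against 357, 513 and 488 in Controls 1 to 3. Without Hsf4 these sums were 98 and 3422 against 90, 174 and 128. In a bulk library, a change in the number of cells of a type and a change in RNA per cell cannot be told apart.

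Mip (chromosome 10 of GRCm38, 128225838 to 128231812) encodes aquaporin 0, the most abundant membrane protein of fibre cells and a water channel. Its counts were 29 in FDM 1 and 1469 in FDM 3, against 22, 42 and 35 in Controls 1 to 3. FDM 3 was the only high library, and FDM 1 lay inside the range of the controls. The mean level was 15.6 ± 21.1 CPM for FDM (SD, n = 2) against 0.675 ± 0.107 CPM for control retinas (SD, n = 3), an SD above the mean in the FDM group. The fitted log2 difference between FDM and control eyes was 4.52, and it was -0.02 when FDM 3 was left out.

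The row that GENCODE calls Lim2 (chromosome 7, 43427670 to 43435996) covers the gene of MP20, a tetraspan protein of fibre cell junctions. Its counts were 1 in FDM 1 and 320 in FDM 3, against 0, 31 and 3 in Controls 1 to 3. Control 2 was therefore the second highest library, and the other 3 lay at or below 3 counts. GENCODE lists 2 transcripts there, a coding one of 884 bases and one of 2180 bases that is not annotated as coding. Its fitted log2 difference was 3.89 with all libraries and -3.12 without FDM 3.

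Gja3 (chromosome 14, 57034460 to 57058100) encodes connexin 46, which forms gap junction channels between fibre cells. It had 71 counts in FDM 3 and 1, 2, 2 and 1 counts in FDM 1 and Control 1, 2 and 3. At 1 or 2 counts the level in the other libraries was at or below the limit of detection, so their order could not be read.

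Bfsp1 and Bfsp2 encode filensin and phakinin, the intermediate filament proteins that assemble into the beaded filament found in fibre cells. For Bfsp1, on chromosome 2 (143826528 to 143863173), the counts were 16 in FDM 1 and 765 in FDM 3, against 28, 49 and 19 in Controls 1 to 3. For Bfsp2, on chromosome 9 (103424924 to 103480420), they were 28 in FDM 1 and 529 in FDM 3, against 18, 36 and 55 in Controls 1 to 3. Both partners were highest in FDM 3, and in CPM FDM 1 lay below all 3 controls for Bfsp1 and among them for Bfsp2. Their levels were 8.14 ± 11 CPM for Bfsp1 and 5.82 ± 7.32 CPM for Bfsp2 under FDM (SD, n = 2), against 0.654 ± 0.233 and 0.747 ± 0.368 CPM in control retinas (SD, n = 3). The fitted log2 differences were 3.63 for Bfsp1 and 2.96 for Bfsp2. Without FDM 3 they were -0.83 and -0.215.

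Lgsn (chromosome 1, 31176401 to 31204725) encodes lengsin, a lens protein of the glutamine synthetase family. Its counts were 24 in FDM 1 and 427 in FDM 3, against 17, 42 and 17 in Controls 1 to 3. The mean level was 4.72 ± 5.89 CPM for FDM (SD, n = 2) against 0.507 ± 0.202 CPM for control retinas (SD, n = 3). FDM 1 again lay inside the range of the controls. The fitted log2 difference was 3.19 and, without FDM 3, 0.11.

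Lctl (chromosome 9, 64117147 to 64138118) encodes a lactase-like protein of the klotho family. It had 157 counts in FDM 3, 0 in FDM 1, and 3, 2 and 1 in Control 1, 2 and 3. Lctl was thus not above the limit of detection outside FDM 3. Dnase2b (chromosome 3, 146580985 to 146615596), whose product degrades the DNA of fibre cell nuclei, had 4 counts in FDM 3, 1 in Control 2 and 0 in the other 3 libraries. No difference in Dnase2b was detectable at this depth.

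Hsf4 (chromosome 8, 105269801 to 105275845) encodes a heat shock transcription factor that is needed for lens development and drives crystallin and beaded filament genes there. Its counts were 296 in FDM 1 and 341 in FDM 3, against 267, 339 and 360 in Controls 1 to 3. The groups overlapped, at 6.96 ± 0.185 CPM for FDM (SD, n = 2) against 6.74 ± 0.818 CPM for control retinas (SD, n = 3). Its fitted log2 difference was 0.05, and with 1 library left out at a time it lay between -0.03 and 0.15. FDM 3, at 7.09 CPM, lay between Control 1 at 6.69 and Control 3 at 7.58 CPM.

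**Figure D1:**
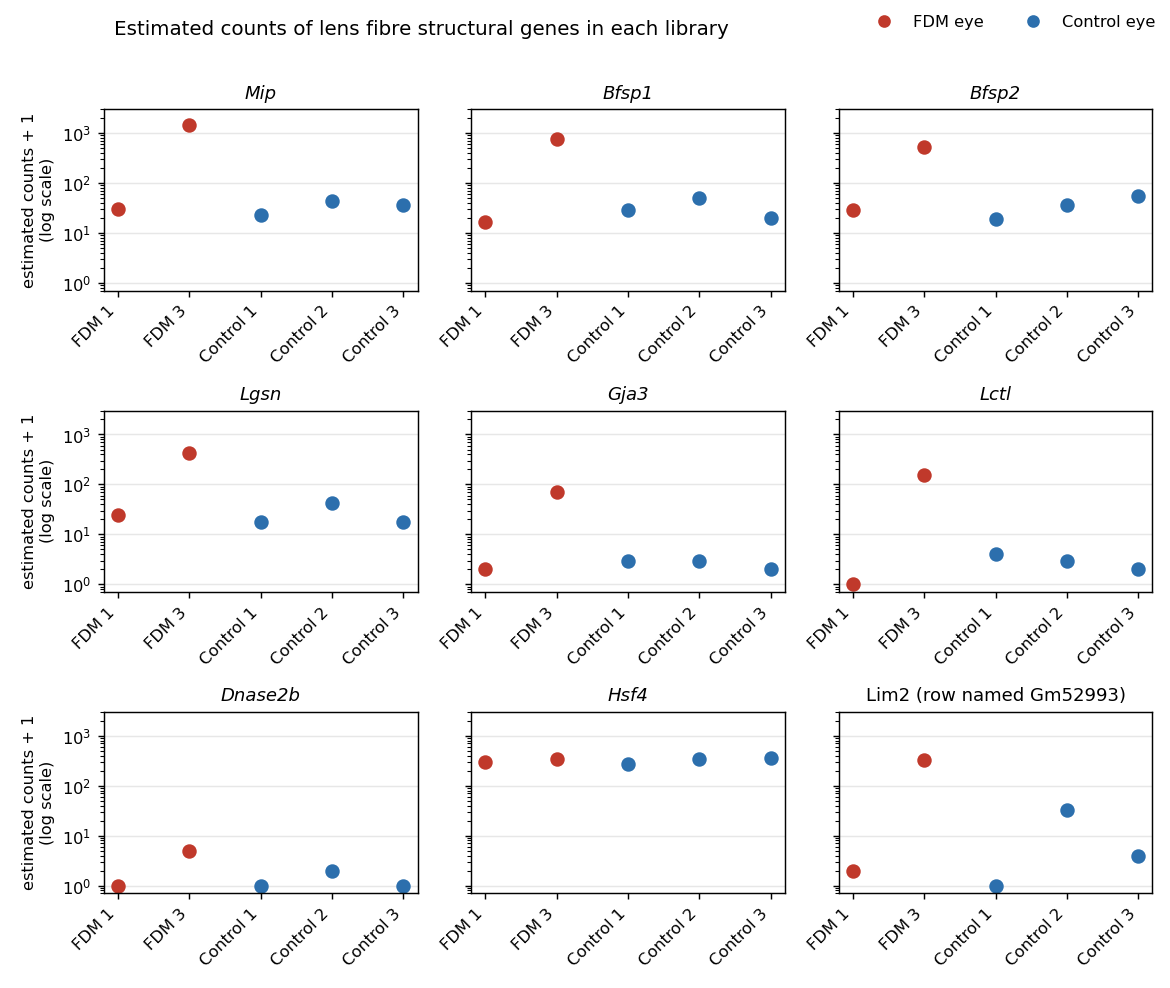
Estimated counts plus 1 on a log axis for the 8 genes and for the row that GENCODE calls Lim2, 1 point per library, with FDM eyes in red and control eyes in blue. Mip reaches 1469 counts in FDM 3 and 22 to 42 counts elsewhere, while Hsf4 lies between 267 and 360 counts in all 5 libraries.

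Per kilobase of the principal GENCODE transcript, the order of levels in FDM 3 was Mip at 14.2 CPM, the Lim2 row at 7.53, Bfsp1 at 6.71, Bfsp2 at 6.62, Lgsn at 4.58, Hsf4 at 4.08, Lctl at 1.5, Gja3 at 0.534 and Dnase2b at 0.031. Bfsp1 and Bfsp2, the partners of the beaded filament, stood side by side. In FDM 1 the order was led by Hsf4 at 3.93 CPM per kilobase, and Bfsp2 at 0.389, Mip at 0.312, Lgsn at 0.286 and Bfsp1 at 0.156 followed. Hsf4 also led in the 3 controls, at 3.42 to 4.36 CPM per kilobase. The level of Hsf4 was thus exceeded by other genes of the set in FDM 3 alone.

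The start regions of the genes whose counts moved together in FDM 3 are shown for 3 members that held a TGCTGA, the core of the element bound by Maf factors, which take part in fibre cell differentiation. The sequences are the 250 bases before the RefSeq start on GRCm38.p6, 5′ to 3′ on the strand of the gene, with motif matches in capitals. The windows are chr10:128225560-128225809 for Mip, chr9:64116897-64117146 for Lctl and chr1:31176185-31176434 for Lgsn, all on the plus strand.
Mip: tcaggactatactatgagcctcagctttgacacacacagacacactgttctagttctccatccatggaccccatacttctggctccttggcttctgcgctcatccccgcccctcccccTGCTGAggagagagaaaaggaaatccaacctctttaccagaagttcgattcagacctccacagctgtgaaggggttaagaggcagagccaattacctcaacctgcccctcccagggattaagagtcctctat
Lctl: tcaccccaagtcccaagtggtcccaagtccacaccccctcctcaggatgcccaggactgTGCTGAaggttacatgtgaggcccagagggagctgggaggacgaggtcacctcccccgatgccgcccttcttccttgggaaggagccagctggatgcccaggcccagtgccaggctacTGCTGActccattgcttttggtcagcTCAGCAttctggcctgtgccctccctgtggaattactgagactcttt
Lgsn: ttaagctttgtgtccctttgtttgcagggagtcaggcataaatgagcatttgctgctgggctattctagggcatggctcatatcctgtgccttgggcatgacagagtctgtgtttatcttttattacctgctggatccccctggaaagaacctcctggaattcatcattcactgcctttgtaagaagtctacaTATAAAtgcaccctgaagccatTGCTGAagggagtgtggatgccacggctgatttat
The search covered both strands. Beside TGCTGA it used TATAAA (the TATA box) and a pair of motifs for the element bound by heat shock factors, GAANNTTC with its units head to head and TTCNNGAA with its units tail to tail, and no printed matches overlapped. TGCTGA was found 132 to 127 bases before the start of Mip and 35 to 30 bases before that of Lgsn. In Lctl it was found at 191 to 186 and at 73 to 68 bases before the start, and in the opposite direction, where it reads TCAGCA, at 47 to 42 bases. Lgsn also held a TATAAA 57 to 52 bases before its start. Of the 7 members with a RefSeq window, TGCTGA was present in Mip, Lctl, Lgsn and Bfsp1, and it was present in the window of Lim2 as well, while 16.1% of the 32851 windows of all genes held it. GAANNTTC was found in Dnase2b alone of the members (6.69% of all windows), and TTCNNGAA in none of them (7.17% of all windows). TATAAA was found in Lgsn and Gja3, and 12.4% of all windows held it. These matches describe the letters of a short window and say nothing of binding.

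The comparison of the eyes of each mouse set FDM against control within one animal. In mouse 3 the FDM eye exceeded the control eye 41.5-fold for Mip, with an exact 95% interval of 29.7 to 59.8 that covers counting error only. The ratio was 39.8-fold for Bfsp1 (25.3 to 66.4), 24.8-fold for Lgsn (15.3 to 43) and 9.5-fold for Bfsp2 (7.19 to 12.8). For Gja3 and Lctl, with 1 count each in Control 3, the ratios were 70.1 (12.2 to 2808) and 155 (27.4 to 6164), and for the Lim2 row it was 105 (35.7 to 514). Hsf4 had a ratio of 0.936 (0.804 to 1.09).

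Some of these ratios changed with Control 2 as the partner of FDM 3, a comparison chosen after seeing the data. Mip stayed at 41.5-fold (30.5 to 57.8), whereas Bfsp1 came to 18.5-fold (13.9 to 25.3) and Bfsp2 to 17.4-fold (12.4 to 25.2), so that the intervals of the beaded filament partners, apart with Control 3, overlapped with Control 2. Lgsn came to 12.1-fold (8.77 to 17) and the Lim2 row to 12.2-fold (8.46 to 18.3). Gja3 came to 42.1-fold (11.2 to 354) and Lctl to 93.1-fold (25.3 to 776), on 2 counts each in Control 2. Hsf4 had a ratio of 1.19 (1.02 to 1.39).

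In mouse 1 no ratio of a member had an interval that left out 1. The FDM eye stood to the control eye as 1.21 to 1 for Mip (0.674 to 2.22), 1.43 for Bfsp2 (0.765 to 2.75), 1.3 for Lgsn (0.67 to 2.58) and 1.02 for Hsf4 (0.862 to 1.21). For Bfsp1 the ratio was 0.526 (0.266 to 1.01). With the authors' normalized counts the ratio of Bfsp2 turned to 0.785. By counting error alone, these intervals leave room for an FDM eye up to 2.22-fold higher for Mip, 2.75 for Bfsp2 and 2.58 for Lgsn. For Bfsp1 the upper limit was 1.01. For Mip, Bfsp1, Bfsp2 and Lgsn the intervals lie below those of the same genes in mouse 3.

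**Figure D2:**
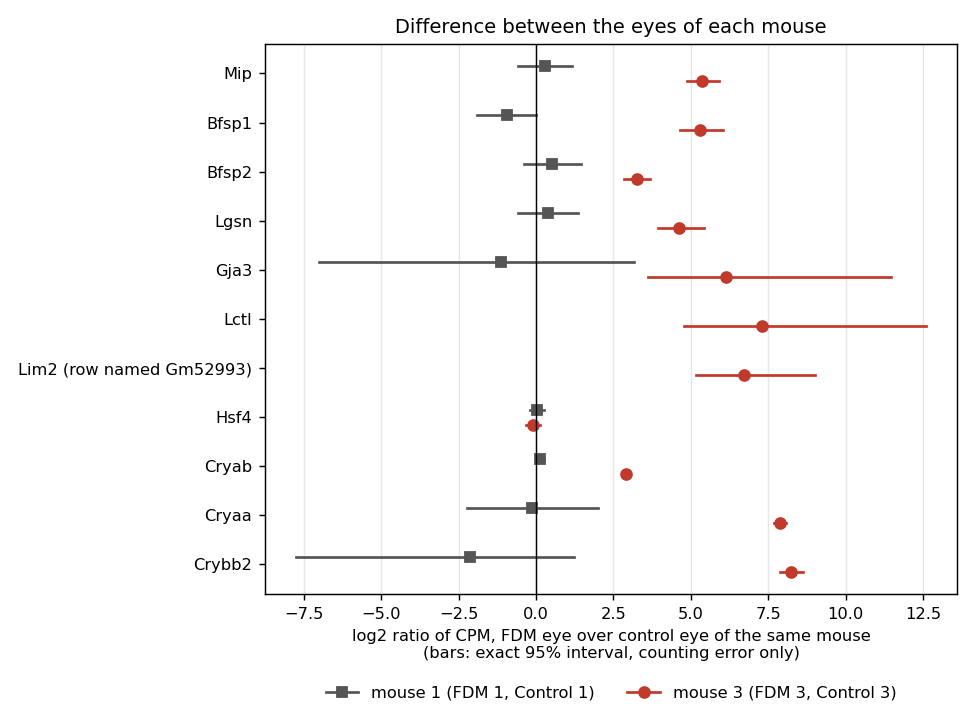
Log2 ratio of CPM between the FDM and the control eye of mouse 1 (grey squares) and of mouse 3 (red circles), with exact 95% intervals for counting error, and no point where an eye had 0 counts. Each interval drawn for a member in mouse 1 includes 0, and in mouse 3 the members lie from 3.25 for Bfsp2 to 7.28 for Lctl, with Hsf4 at -0.10.

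Across all genes, differences of this size within a mouse were rare. A gene was tested when 2 or more libraries held over 10 counts of it, and of 17432 such genes, 39 (0.224%) were at least 8-fold higher in the FDM eye of mouse 3 with 0.5 counts added to each library. They comprised 14 crystallins, 4 members (Mip, Bfsp1, Bfsp2 and Lgsn), the Lim2 row, 1 gene of the list of further lens genes and 19 genes of no list used here. Each of those 19 had at most 2 counts in Control 3, and 17 of them had 0. In mouse 1, 26 genes (0.149%) were as far above the control eye, and none was a member. The members were chosen knowing the first of these differences, so the counts describe where they lie and test nothing.

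The 5 members that passed the count filter were Mip, Bfsp1, Bfsp2, Lgsn and Hsf4. The choice of members rests on this same contrast, so the counts that follow are fixed by it and nothing is read from them. Of these 5, 4 were higher in FDM eyes with an unadjusted p under 0.05 in edgeR, the threshold of the study, as were 0.453% of all genes tested, and 0 were lower, as were 1.16% of all genes. FDM 3 was the highest library for the same 4 and for 9.03% of all genes tested. Without FDM 3 the count of 4 became 0, without Control 3 it became 2, and with limma on the authors' normalized counts of all 5 libraries it was 0. In no member did both FDM libraries lie above every control, as was so for 3.97% of the genes tested, and in none did both lie below every control, as was so for 6.67%. The median log2 difference was 3.19 over the 5 members (1.92 with limma and a pseudocount of 1) and -0.01 over all genes tested. After Benjamini-Hochberg adjustment, 0 of 17432 genes had a p under 0.05 in edgeR and 3 in DESeq2, and at the unadjusted threshold these tools called 281 genes (1.61%) and 172 genes. With the mouse as a block, edgeR called 1261 genes at the unadjusted and 54 at the adjusted threshold. The unadjusted count was 944 without Control 1, 550 without Control 2, 146 without Control 3 and 165 without FDM 1.

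The crystallins shared their high library with these genes, and all but Cryab and Cryga kept a smaller part of that level than Mip did in FDM 1 and Control 1. Cryab stood at 9.89% in FDM 1 and 9% in Control 1, and Cryga at 4.89% and 3.54%. Among the members, Lctl was at 0% in FDM 1 and 2.3% in Control 1. FDM 1 and Control 1 held 0.0118% and 0.0128% of the Cryaa level of FDM 3, whereas for Mip they held 2.19% and 1.8% of it, for Bfsp2 5.87% and 4.1% and for Lgsn 6.24% and 4.8%. In Control 2 and Control 3, Cryaa reached 0.626% and 0.429% of its level in FDM 3, and Mip stood at 2.41% in both. Outside FDM 3 the counts of Mip, Bfsp1, Bfsp2 and Lgsn ran from 16 to 55, whereas Lctl and Gja3 had at most 3. The Lim2 row stood at 8.17% of its FDM 3 level in Control 2 and at 0.949% in Control 3, and the gamma crystallins were likewise higher in Control 2. Those (Cryga to Crygf) summed to 5 counts in FDM 1 and 8893 in FDM 3, against 6, 959 and 36 in Controls 1 to 3. Of the 3 lens epithelium markers, Foxe3 had 2 counts in FDM 3 and 0 elsewhere, Pitx3 had 11 in FDM 3 and at most 1 elsewhere, and Cdh1 had 28 to 47 counts in all libraries. The part of lens RNA in the difference between FDM and control eyes was not tested.

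**Figure D3:**
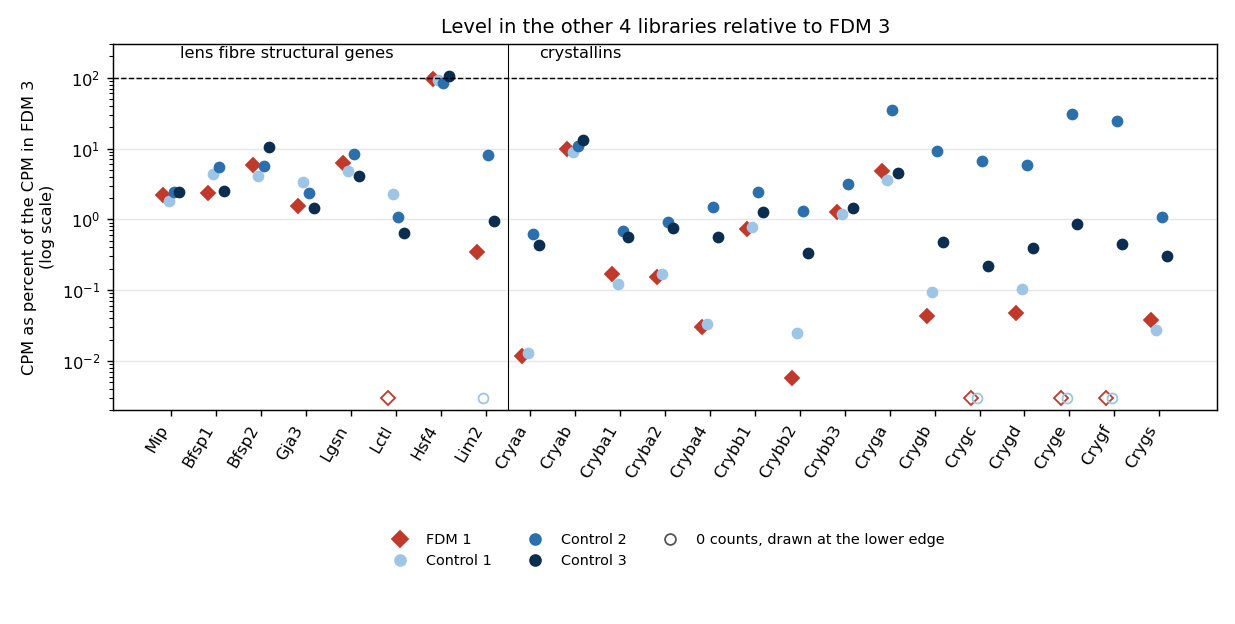
CPM in FDM 1 and the 3 controls as a percent of the CPM in FDM 3, on a log axis, for the members other than Dnase2b, for the Lim2 row and for 15 crystallins, with open symbols at the lower edge for 0 counts. Mip lies at 1.8% to 2.41% in all 4 libraries, Cryaa between 0.0118% and 0.626%, and Hsf4 between 83.9% and 107%.

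The authors' normalized counts use gene-specific scaling, and for most members this factor was nearly that of the library. Relative to the library median, the factor of Mip ran from 0.995 to 1.01, and over the libraries the highest factor was 1.07 times the lowest for Bfsp1, Gja3 and Hsf4 and 1.08 times for Lgsn. Bfsp2 was the exception, with 1.3 in FDM 1 and 1.05 in FDM 3, against 0.702, 1.26 and 0.827 in Controls 1 to 3. Its highest factor was 1.85 times the lowest, a spread that 1.5% of the 17321 tested genes with a count in every library reached, against a median of 1.06. Accordingly the normalized counts of Bfsp2 were 23.4 in FDM 1 and 491 in FDM 3, against 29.8, 23.5 and 65.7 in Controls 1 to 3, and Control 1 changed from the lowest library to the second highest control. GENCODE lists 2 transcripts of Bfsp2, of 1662 and 772 bases, and 2 genes on the opposite strand overlap it, 5830418P13Rik and Gm16252. Neither trait is particular to Bfsp2. Bfsp1, Lgsn, Gja3, Dnase2b and the Lim2 row also have 2 transcripts, and Mip, Bfsp1, Lgsn, Lctl and Dnase2b also overlap genes of the opposite strand. The TruSeq kit named in the labels does not mark strand, so reads of overlapping genes cannot be told apart by strand. The part of the transcripts or the overlaps in these factors, or in the low counts outside FDM 3, was not tested. Lctl also varied, from 0.745 to 1.17, on 1 to 3 counts outside FDM 3.

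**Figure D4:**
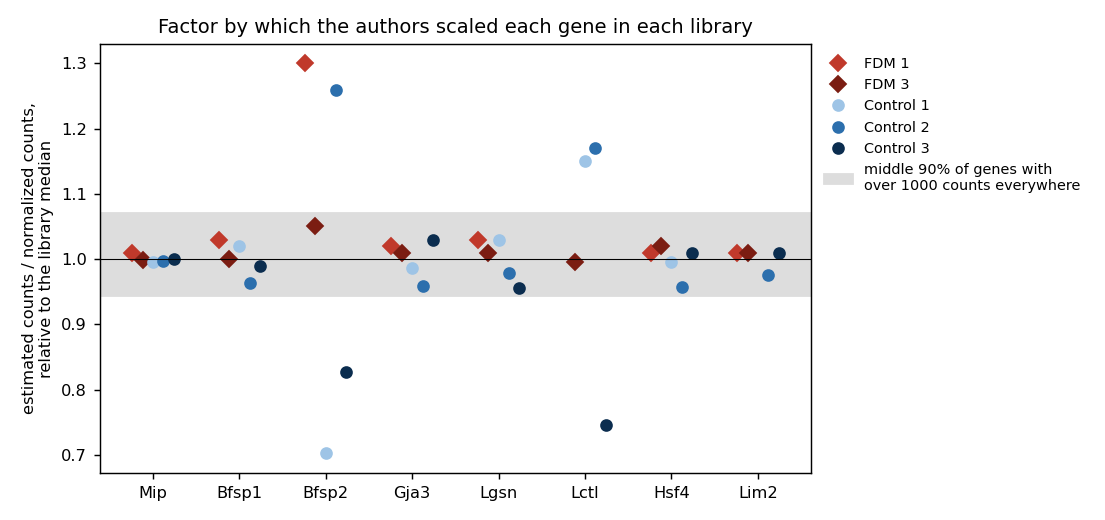
Ratio of estimated to normalized counts for the members other than Dnase2b and for the Lim2 row, divided by the median ratio of the library. Each library that had a count has 1 point. A grey band runs from the lowest 5th to the highest 95th percentile of any library over 7559 abundant genes (above 1000 counts in all libraries). Mip lies close to 1 in all libraries, and Bfsp2 spreads from 0.702 in Control 1 to 1.3 in FDM 1.

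Relatives of these genes by protein family or role, which retinal cells use, were compared in the same fit. All 24 passed the filter, and 0 of them had an unadjusted p under 0.05 in edgeR and 0 in DESeq2, beside 1.61% of all genes in edgeR. In edgeR 3 of them passed without Control 1, where 944 of the 17432 genes tested passed. Without Control 2, 1 passed, beside 550 of all genes. With the mouse as a block 2 passed (Gja1 and Aqp4), beside 1261 of all genes. Their median log2 difference was -0.03. Aqp1, a water channel related to Mip, had a log2 difference of -0.10 (standard error 0.09) and Nefl, a neurofilament of ganglion cells and a relative of the beaded filament proteins, had -0.06 (standard error 0.13). Gjd2, the main neuronal connexin of retina, had -0.04 (standard error 0.09). Glul, the glutamine synthetase of Müller glia, was the most abundant, and its log2 difference was 0.01 (standard error 0.09). Pmp22, a relative of Lim2, had -0.20 (standard error 0.15), Kl had -0.21 (standard error 0.15), Dnase2a had 0.14 (standard error 0.11) and Hsf1 had 0.09 (standard error 0.12).

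Gja1, the connexin of astrocytes, vessels and RPE, was named after its values were seen. Its counts were 207 in FDM 1 and 457 in FDM 3, against 223, 1441 and 1455 in Controls 1 to 3. Control 1 lay between the FDM libraries, and its log2 difference was -1.52 (standard error 0.66), with unadjusted p = 0.052 and adjusted p = 1.0 in edgeR. A block for the mouse gave -1.15, with unadjusted p = 0.00139 and adjusted p = 0.233 in edgeR. With a block by the numbers of the titles the log2 difference was -0.88, with unadjusted p = 1.29e-07 and adjusted p = 3.95e-05 in edgeR. Either block rests the difference on the 2 mice with both eyes. These p-values rest in part on variation that edgeR shares over genes, and they are no measure of the spread between mice. The difference was -1.96 without Control 1 (unadjusted p = 0.000276 from edgeR) and -2.11 without FDM 3 (unadjusted p = 0.0353 from edgeR). The RPE markers were highest in the same 2 controls, at 233 and 282 CPM, and their part in the difference was not tested.

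**Figure D5:**
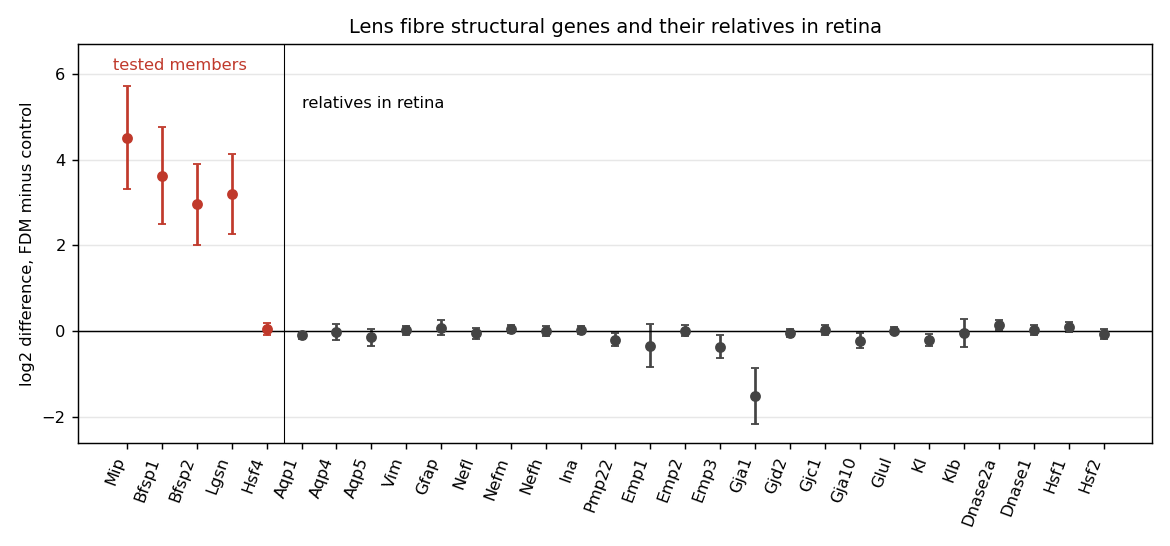
Log2 difference between FDM and control eyes from edgeR with its standard error, for the 5 members tested (red) and for 24 relatives in retina (grey). The relatives lie between -1.52 for Gja1 and 0.14 for Dnase2a, and Mip, Bfsp1, Bfsp2 and Lgsn lie from 2.96 to 4.52.

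Of 20 further lens genes outside the members and crystallins, 15 were tested. At an unadjusted p under 0.05 in edgeR, 2 were higher and 1 lower in FDM eyes, while 12 did not pass. Among all genes tested, 0.453% were higher and 1.16% lower. The list was chosen with earlier results of these data known, so these counts test nothing. Of the 2 that were higher, Lenep is described here. Lenep, named for the lens epithelium, had 306 and 401 counts in FDM 1 and FDM 3, against 256, 234 and 259 in Controls 1 to 3. Like 3.97% of all genes tested, Lenep had both FDM libraries above every control. Its log2 difference was 0.54 (standard error 0.19), with unadjusted p = 0.0272 and adjusted p = 1.0 in edgeR. It no longer passed without FDM 3, at 0.41, or without Control 3, at 0.56. Slc16a12, a monocarboxylate transporter, had 16 and 32 counts in FDM 1 and FDM 3, against 22, 123 and 69 in Controls 1 to 3. Its log2 difference was -1.43 (standard error 0.56), with unadjusted p = 0.037 and adjusted p = 1.0 in edgeR. It no longer passed without FDM 1 (-1.08), Control 2 (-0.95) or Control 3 (-1.40), and the RPE markers were again highest in Controls 2 and 3, whose part was not tested.

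The lens genes that retina itself transcribes in quantity had small differences. Tdrd7, Fyco1 and Prox1, which had the most counts of this list, had log2 differences of -0.01 (standard error 0.08), 0.11 (standard error 0.13) and -0.07 (standard error 0.13), and none had an unadjusted p under 0.05 in edgeR. Fyco1 passed with a block for the mouse, at 0.21 (unadjusted p = 0.0032, adjusted p = 0.384 in edgeR). Grifin, Birc7, Sox1, Pitx3 and Foxe3 did not pass the count filter, which a gene high in FDM 3 alone cannot pass. All 5 were highest in FDM 3 (named after their values were seen), as were 9.03% of the genes tested, and nothing is read from this. Foxe3 had 2 counts there and 0 elsewhere, below the smallest level treated as detected. Grifin, a galectin-related fibre cell protein, had 5 and 233 counts in FDM 1 and FDM 3, against 3, 4 and 8 in Controls 1 to 3.

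The genes most like the set were sought by the root mean square difference between centred log2 CPM profiles over the 5 libraries. The standard was the mean profile of the 5 tested members. Hsf4, which varied little, is part of that mean and lowers its rise in FDM 3. Genes with a weaker rise than Mip can therefore lie nearer to the mean than Mip does. Of the 10 nearest genes, 9 are described here. Cryab, a crystallin and small heat shock protein that retina also makes, was second in order, at 0.252. Cryab had 1101 counts in FDM 1 and 12354 in FDM 3, against 923, 1562 and 1635 in Controls 1 to 3. Among the members, Lgsn lay at 0.337 from the mean profile, Bfsp2 at 0.42, Bfsp1 at 0.616, Mip at 0.721 and Hsf4 at 1.47. The 8 genes after Cryab lay much farther off, from 0.871 to 1.03. They were Duxbl3 (identifier ENSMUSG00000072672, unnamed in the table), Nat8f7, Crybb3, Cryga, Gm45208, Aldh3a1, Aox3 and Fabp5. Of these, Aldh3a1 encodes an abundant enzyme of the cornea and had 21 counts in FDM 3 and 6 to 17 elsewhere. Fabp5, a fatty acid binding protein, had 1904 counts in FDM 3 and 673 to 1058 elsewhere. With the authors' normalized counts in place of CPM, 2 of the 10 genes were shared.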

How the data were processed

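The authors trimmed reads of poly-A RNA with Trimmomatic 0.39, quantified transcripts with Salmon 1.10.1 and summed them to genes, and deposited estimated counts as whole numbers. The authors also deposited a signal table of counts normalized in DESeq2. The builds per the labels were GRCm38 and mm10.

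Members and gene lists were chosen with earlier results of these data known. A filter kept 17432 of 33636 genes (over 10 counts in 2 or more libraries). They were fitted in edgeR 4.0.16 (R 4.3.3) with TMM factors and the quasi-likelihood test, without covariates, at the study's unadjusted p of 0.05 and with Benjamini-Hochberg adjustment over all genes tested. The scripts were tested on simulated counts. Alternatives used DESeq2 1.42.0, limma 3.58.1, other factors and filters, a replicate block and each library left out. The pairing of eyes follows the mouse numbers of the study. Deviations from the group means correlated across genes at 0.229 for FDM 1 with Control 1, -0.151 with Control 2 and -0.088 with Control 3. With 2 FDM libraries, the deviations of FDM 3 are those of FDM 1 with the sign turned. The values for FDM 3, 0.151 with Control 2 and 0.088 with Control 3, thus hold nothing of their own and cannot decide its partner. Intervals on ratios are exact binomial (95%). Named were all members, the 10 genes of most similar profile, the most abundant relative of each member, the 3 most abundant further lens genes and any of these lists with a p under 0.05, with exceptions stated. Cryaa, Crybb2 and sums stand for the crystallins. Coordinates are from GENCODE M21 on GRCm38 and start regions from RefSeq on GRCm38.p6. The values of 1 gene that this rule would name are not reported here.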

Additional observations from a re-analysis of the deposited data

How the results depend on the processing

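The median log2 difference of the tested members (3.19) kept its direction with DESeq2, RLE factors, library totals, other filters, a prior count of 2, limma and both block fits. It was 1.92 and 1.93 with limma at the 2 pseudocounts and 2.52 with the block by label numbers. Over the fits that left out 1 library it ran from -0.02 (without FDM 3) to 4.1, and members higher in FDM ran from 2 to 5. Those fits gave -0.02 to 5.48 for Mip, -0.83 to 4.59 for Bfsp1, -0.215 to 3.87 for Bfsp2 and -3.12 to 6.52 for the Lim2 row, the lowest without FDM 3 in each case. A lone library in an arm was assumed to vary like the other group. The fits called 146 to 944 genes unadjusted and 0 to 16 adjusted, 0 to 4 members, 0 to 3 relatives and 1 to 3 further lens genes. DESeq2 called 172 genes unadjusted and 3 adjusted. With no filter on low counts edgeR called 498 genes, 1 relative and 5 further lens genes, and 8 members were higher. On normalized counts limma called 0 members with either pseudocount (1 or 0.1), beside 300 and 293 genes, and the list of most similar genes shared 2 of 10.

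With the mouse numbers of the study as a replicate block, edgeR called 1261 genes unadjusted, 54 adjusted and 2 relatives. With the numbers of the labels as the block it called 439, 128 and 1. In both, 4 of the 5 tested members were called, with 17432 genes tested. The members were chosen on this contrast, so nothing is read from that count. Either block rests the difference on the 2 mice with both eyes. Its p-values rest in part on variation that edgeR shares over genes, and they are no measure of the spread between mice. The causes of the changes in these counts were not tested. Depth limits Gja3, Lctl and Dnase2b, which had at most 3 counts outside FDM 3.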
